A study of Mus musculus with 34 samples.

Results

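The comparison set the livers of pups with the highest expected thyroid hormone state (hyper) against those with the lowest (hypo). Arrays were taken by the treatment code in their labels, which gave 19 of the 34 arrays of the series: 10 hyper arrays (5 males, 5 females) and 9 hypo arrays (4 males, 5 females), with 1 pup per array. All were C57BL/6 pups whose livers were collected on postnatal day (PND) 15. Hyper pups received 1 intraperitoneal injection of 50 μg T4 and 5 μg T3 per 100 g body weight 4 h before collection. Hypo pups had been exposed through the drinking water of their dams to methimazole (0.05%), which blocks hormone synthesis, and sodium perchlorate (1%), which blocks iodide uptake, and received saline at the same time. The exposure lasted 3 days, beginning on PND 12 by the methods of the study and on PND 13 by its deposited description. The groups therefore differed both in goitrogen exposure and in hormone injection, and within these 19 arrays those differences cannot be told apart. As points of reference, values are also given for 8 control pups (saline, no goitrogen) and 7 hypo+ pups, which had the goitrogens and an injection of 20 μg T4 and 2 μg T3 per 100 g. By the methods of the study, hypo+ pups were selected for serum T4 near or slightly above control. Pups of the same treatment with T4 like that of hyper pups were set apart and not arrayed. The control and hypo+ arrays did not enter the test of hyper against hypo. Of them, 3 control arrays (males 522 and 832, female 831) and 1 hypo+ array (female 543) stood apart by a high level of pancreatic acinar genes, with a mean over the list of 1.92 to 4.22 against at most 0.79 on the other 30 arrays. They are included in the means and positions of control and hypo+ unless stated. Counts of calls against control are given with and without them, and values of single genes against control include them unless stated. Serum hormones were not analysed here. By the methods of the study, arrays that hierarchical clustering marked as outliers had been removed in each sex, which left these 34. Ranges and overlaps of groups cover only the arrays that were kept.

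Thyroid hormone is released mainly as T4, and deiodinases in tissues either activate it to T3 or inactivate it. T3 binds nuclear thyroid hormone receptors, which usually sit on DNA as partners of retinoid X receptors, recruit corepressors when unoccupied and exchange them for coactivators when T3 is bound. In liver the hormone is known for its control of lipid synthesis, cholesterol and bile acid turnover, and mitochondrial energy use.

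Each array measured RNA of 1 pup labelled with Cy5 against a common mouse reference RNA labelled with Cy3, and every level below is a log2 ratio of Cy5 to Cy3 after loess normalization within the array. A difference of 1 on this scale is a 2-fold difference, and differences are given as hyper minus hypo. Levels of different probes cannot be set against each other. The 19 arrays lay on 10 slides, and 9 slides held 1 hyper and 1 hypo array of the same sex, so that each of these slides gave a difference of its own. The median Cy5 signal of an array ranged from 151 to 192.5 in hyper and from 149 to 191 in hypo, and the share of spots well above background from 60.81% to 78.14% and from 63.5% to 77.62%. By the first digits of the animal numbers, the hyper pups came from 6 litters and the hypo pups from 5, with 2 pups in 4 litters of each group, and the labels do not state litters. Liver identity was clear in both groups: all 10 hepatocyte markers found on the array, among them Alb, Apob and Hnf4a, were well above background on all 19 arrays, with a mean level of 4.29 to 5.45 in hyper and 4.31 to 5.69 in hypo pups. Whole liver was measured, so fewer cells of a type and less RNA per cell cannot be told apart.

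Of 41174 probes tested, 3404 (8.27%) differed between hyper and hypo at an adjusted p below 0.05 (limma, Benjamini-Hochberg). They divided evenly, with 1697 (4.12%) higher and 1707 (4.15%) lower in hyper pups. Differences were mostly small: the median was 0.28 among the probes higher in hyper and -0.25 among those lower. At 2-fold or more the balance was different, with 67 probes (0.163%) higher and 24 (0.0583%) lower, and at 3-fold or more 14 and 4. When each gene was represented by its brightest probe, 2723 of 33236 genes (8.19%) were called, 1271 (3.82%) higher and 1452 (4.37%) lower. These shares are the background for all counts of gene groups below. They cover all genes, and 16658 of 33541 probe accessions kept their identifier in place of a gene name. Shares were larger among the 13242 genes with a promoter window (747 higher, 757 lower). They were also larger in a fit of the 29331 probes above negative controls (3626 called). Lists of named genes are thus set against a low background. The gene lists were chosen with earlier results of these data known. Where a call is said to hold in some of 16 settings, these are the alternatives of block, samples, normalization and source column of the closing section, males alone and females alone included. Inferred littermates were treated as independent apart from the slide block, and an inferred litter block is one of the settings. Groups without any overlap, in which each hyper pup lay above or each below all hypo pups, were found for 475 probes (1.15%), with hyper above for 329 (0.799%) and below for 146 (0.355%). The sign of the difference was the same on all 9 slides for 4.98% of all probes and for 1727 (50.7%) of those called. The division into higher and lower depended on the normalization. Higher probes made up 49.9% of the calls after loess, 39.3% after normexp background correction and 62.8% after median centring of each array.

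**Figure D1:**
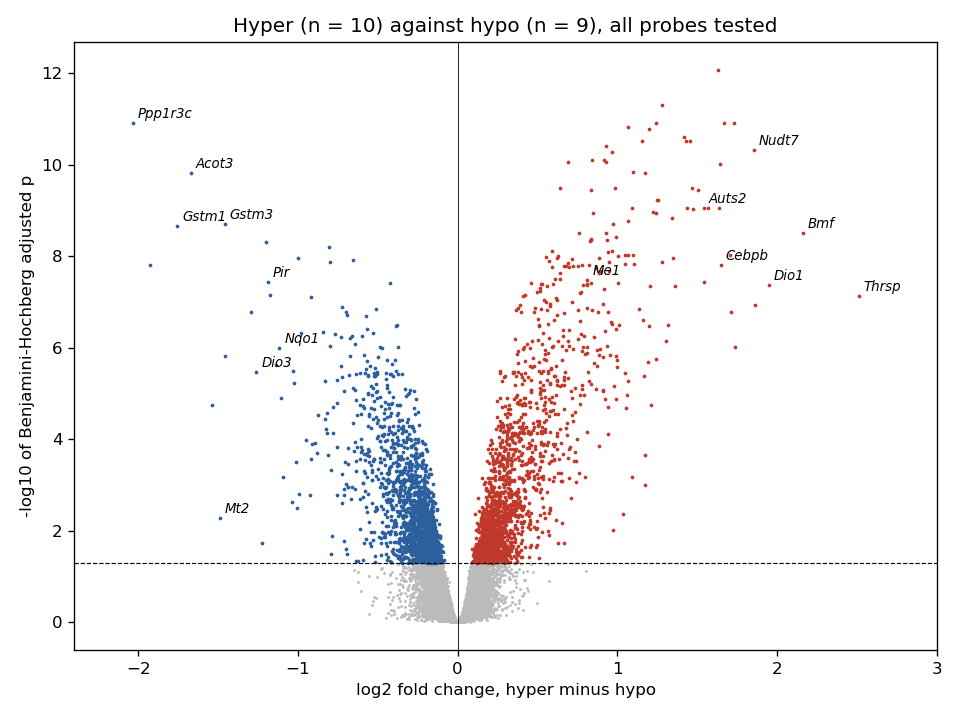
Difference between hyper and hypo (x axis, log2 fold-change) against the negative log10 of the adjusted p (y axis) for all 41174 probes. Red and blue points are the 1697 higher and 1707 lower probes, grey points were not called, and the dashed line is an adjusted p of 0.05. Thrsp at 2.51 and Ppp1r3c at -2.04 lie farthest to the sides.

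The 4 genes taken as markers of the comparison, Thrsp, Dio1, Auts2 and Me1, were all higher in hyper pups, and in each of them no hyper pup overlapped with a hypo pup. The study had listed Auts2 as directly regulated and had reported Thrsp, Dio1 and Me1, all from these same arrays. The direction of the 4 markers is therefore not independent evidence. Thrsp, a nuclear protein that promotes fatty acid synthesis and a classical hormone target, had levels from 2.56 to 4.06 (median 3.28) in hyper and from 0.03 to 1.78 (median 0.50) in hypo pups. This was the largest difference on the array, 2.51 (SE 0.21, adjusted p = 7.37e-08), or 5.7-fold, although the probe was well above background in only 7 of 9 hypo pups. Control pups had a Thrsp mean of 2.26 ± 0.45 (SD, n = 8) and hypo+ pups of 2.13 ± 0.70 (SD, n = 7), both between the extremes.

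Dio1, the deiodinase that generates T3 in liver, ranged from 5.93 to 7.14 (median 6.28) in hyper and from 3.47 to 5.07 (median 4.48) in hypo pups. The difference was 1.95 (SE 0.16, adjusted p = 4.34e-08) and lay between 1.35 and 2.69 on the 9 slides. The control mean of 6.00 ± 0.30 (SD, n = 8) was far closer to hyper (6.33 ± 0.34, n = 10) than to hypo (4.39 ± 0.54, n = 9). Against the same controls, Dio1 was lower in hypo by a called difference of -1.60 (adjusted p = 7e-09), while the hyper difference of 0.35 was not called (adjusted p = 0.29).

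Auts2, a gene known mainly from neural development, showed the opposite arrangement. Its levels were 2.00 to 2.59 (median 2.29) in hyper and 0.34 to 1.33 (median 0.77) in hypo pups, a difference of 1.54 (SE 0.09, adjusted p = 8.97e-10). The control mean, 0.67 ± 0.15 (SD, n = 8), was level with that of hypo (0.75 ± 0.29, n = 9), and hypo+ pups reached 1.96 ± 0.27 (SD, n = 7). A further Auts2 probe, well above background in 8 of 9 hypo pups, was also called but differed by only 0.25. Me1, the malic enzyme that supplies NADPH for fatty acid synthesis, was higher by 0.81 (SE 0.06, adjusted p = 3.24e-08), with levels of -1.17 to -0.64 in hyper and -1.94 to -1.45 in hypo pups. The control mean, -1.30 ± 0.17 (SD, n = 8), lay between these ranges, with control levels from -1.54 to -1.01 that overlapped both, and hypo+ pups had nearly the mean of hyper (-0.95 against -0.94).

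**Figure D2:**
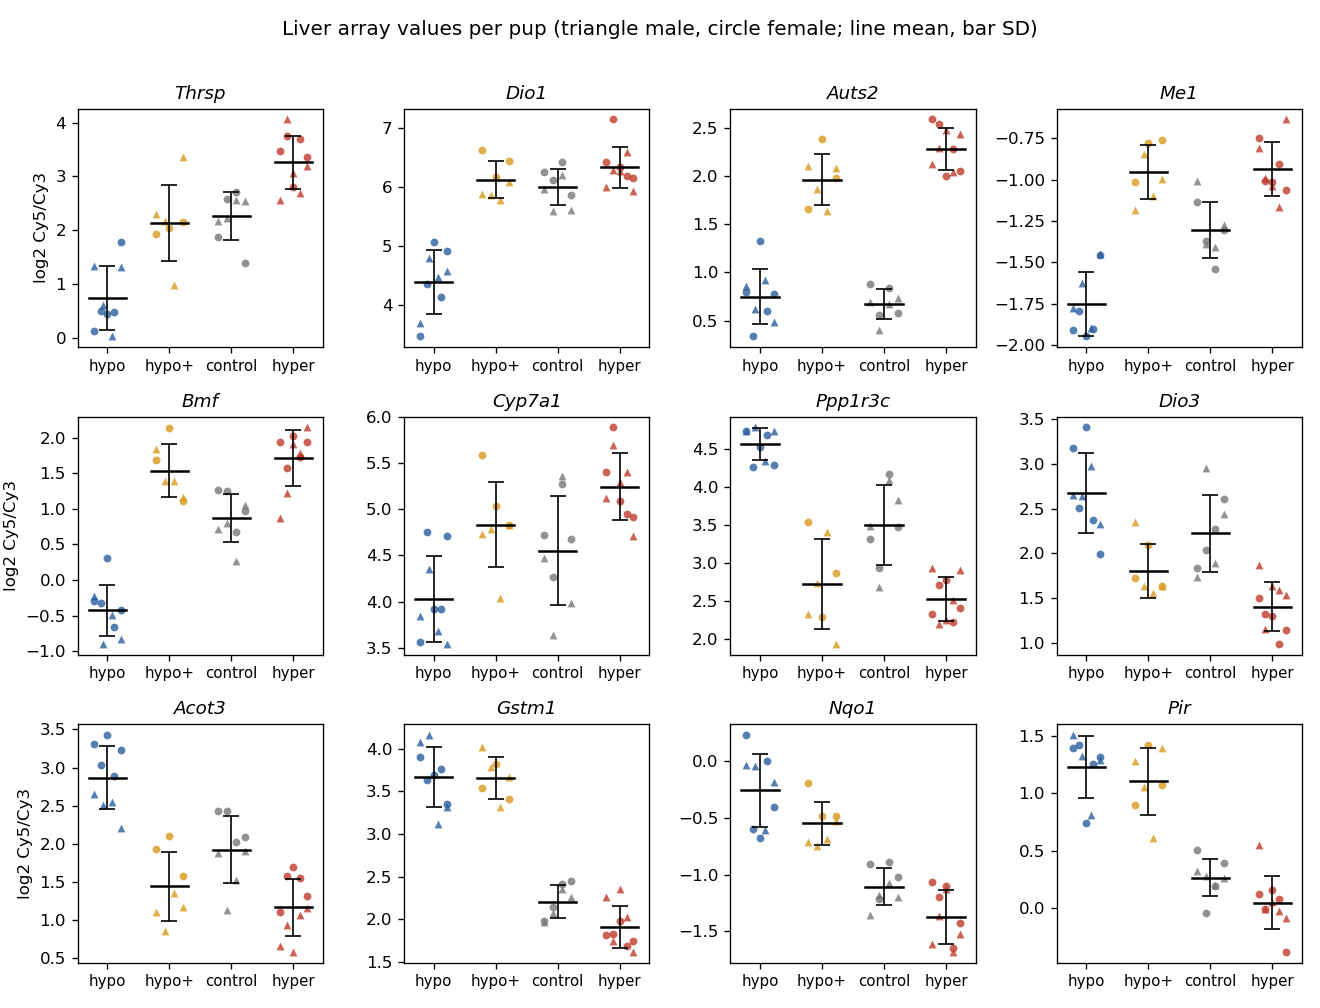
Level of 12 genes in each pup (y axis, log2 Cy5/Cy3) in hypo (n = 9), hypo+ (n = 7), control (n = 8) and hyper (n = 10) livers. Triangles are males, circles females, horizontal lines group means and bars SDs. Hyper and hypo do not overlap in 11 of the 12 genes (they do for Cyp7a1), and the grey control points fall between them, beside hypo (Auts2) or close to hyper (Dio1, Gstm1, Nqo1, Pir).

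Besides these markers, the genes with the largest rise that had the same sign on all 9 slides were, in order, Bmf, Nudt7, 2210407C18Rik, Ly6c1, Mup1, 9030619P08Rik, DXBay18, Cebpb, BC024137, Bcl3, Slc25a45 and 5033430I15Rik. Their differences ran from 2.16 down to 1.57, and all hyper pups exceeded all hypo pups in every one. Bmf, a BH3-only protein that promotes apoptosis, had levels of 0.87 to 2.14 (median 1.85) in hyper and -0.90 to 0.31 (median -0.41) in hypo pups, a difference of 2.16 (SE 0.14, adjusted p = 3.12e-09). Of its other probes, one rose by 0.37 and one was not called, at 0.09. Nudt7, a peroxisomal hydrolase of coenzyme A, was tightly grouped, with levels of 4.87 to 5.31 in hyper and 2.78 to 3.70 in hypo pups and a difference of 1.86 (SE 0.09, adjusted p = 4.89e-11).

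Slc25a45, a member of the mitochondrial carrier family, had the lowest adjusted p of the named genes, 8.61e-13. Its levels were 1.95 to 2.51 (median 2.25) in hyper and 0.44 to 0.74 (median 0.67) in hypo pups, with a difference of 1.63 (SE 0.06). Cebpb, a transcription factor of the acute phase and of gluconeogenesis, differed by 1.65 (SE 0.12), with hyper pups at 0.53 to 1.24 and hypo pups at -1.28 to 0.08, and a further probe gave 1.43. Ly6c1, a surface antigen, rose by 1.73 with its brighter probe, but its other probe, at -0.05, was not called. The probe for Mup1, a major urinary protein, rose by 1.71 (SE 0.15) but was well above background in only 6 of 9 hypo pups, and near-identical copies of this gene may share the signal. For 9030619P08Rik (1.71) the call was lost with the log ratio of the scanner software, where the difference was 0.55 (adjusted p = 0.257).

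Promoter windows from RefSeq (GRCm38.p6, from 250 bases before to 50 after the annotated start, written 5′ to 3′ on the strand of the gene) were searched on both strands for the receptor half-site AGGTCA. They were found for 13242 of the genes tested. A gene could have several windows and was counted when any of them held a match. Only windows with a match are printed, and other windows of the same gene may hold none. The half-site was present in 18.61% of 747 genes called higher, in 13.87% of 757 called lower and in 16.07% of all 13242. Among the genes higher by at least 2-fold it was found in 7 of 33 windows, and among those lower by at least 2-fold in 2 of 14. Pairs of the looser form AGGNCA were searched as a direct repeat with 4 bases between, an inverted repeat with none and an everted repeat with 6. The direct repeat was found in 30 of all genes, 3 of them called higher (Adcy7, Psmb10 and Tmco4, with differences of 0.29, 0.31 and 0.28) and 0 called lower. The inverted repeat was found in 4 genes, none of them called, and the everted repeat in 10, of which Echdc3 (-0.30) and Lzts2 (-0.29) were lower. The windows of Thrsp, Dio1 and Me1 held neither the half-site nor a pair, and no window was at hand for Auts2. 3 genes with a large rise whose windows held the half-site are shown, with the half-site or its complement TGACCT in capitals, to let the letters be read beside the values: Bmf (chr2:118549637-118549936, minus strand, 2.16), Slc25a45 (chr19:5877572-5877871, plus strand, 1.63) and Trim24 (chr6:37900237-37900536, plus strand, 1.20), in which it occurs 3 times. A match is a description of sequence and not a binding site.
Bmf: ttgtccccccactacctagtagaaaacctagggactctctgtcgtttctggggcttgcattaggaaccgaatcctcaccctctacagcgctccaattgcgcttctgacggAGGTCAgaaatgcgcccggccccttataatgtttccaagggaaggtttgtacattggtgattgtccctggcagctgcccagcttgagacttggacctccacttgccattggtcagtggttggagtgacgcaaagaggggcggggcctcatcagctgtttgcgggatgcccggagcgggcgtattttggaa
Slc25a45: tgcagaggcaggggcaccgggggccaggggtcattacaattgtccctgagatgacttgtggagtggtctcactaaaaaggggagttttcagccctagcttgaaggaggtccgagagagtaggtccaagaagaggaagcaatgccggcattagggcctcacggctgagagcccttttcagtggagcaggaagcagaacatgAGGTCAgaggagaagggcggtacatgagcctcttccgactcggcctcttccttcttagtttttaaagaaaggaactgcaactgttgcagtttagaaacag
Trim24: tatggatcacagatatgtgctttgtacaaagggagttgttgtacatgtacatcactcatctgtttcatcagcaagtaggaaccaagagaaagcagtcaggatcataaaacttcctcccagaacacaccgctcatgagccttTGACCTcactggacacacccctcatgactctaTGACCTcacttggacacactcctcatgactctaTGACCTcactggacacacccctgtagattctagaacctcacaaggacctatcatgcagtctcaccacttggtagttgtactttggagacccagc

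On the other side, the 15 genes with the largest fall and the same sign on all 9 slides were Ppp1r3c, the unnamed probe A_52_P1156957, Gstm1, Acot3, Gstm3, Ces1f, Aox1, Dio3, Pir, Dio3os, Nqo1, Socs2, Ephx1, Egln3 and Spsb4. Hyper and hypo pups did not overlap in 12 of them, the exceptions being Ces1f, Socs2 and Spsb4. Ppp1r3c, which targets protein phosphatase 1 to glycogen, had levels of 2.20 to 2.94 (median 2.47) in hyper and 4.27 to 4.79 (median 4.69) in hypo pups. The difference was -2.04 (SE 0.09, adjusted p = 1.27e-11), or 4.1-fold, and its other probe gave -1.18. Acot3, a peroxisomal acyl-CoA thioesterase, lay at 0.58 to 1.69 in hyper and 2.20 to 3.42 in hypo pups, a difference of -1.67 (SE 0.09, adjusted p = 1.54e-10). Egln3, an oxygen-sensing prolyl hydroxylase, was lower by 1.00 (SE 0.07), with levels of -2.19 to -1.76 in hyper and -1.36 to -0.57 in hypo pups. Ces1f, a carboxylesterase, differed by -1.46 (SE 0.15), and with the log ratio of the scanner software it was not called (-0.41, adjusted p = 0.322). Spsb4 differed by -0.99, with 1 hyper pup (male 498) at -0.35 and the next at 0.71.

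**Figure D3:**
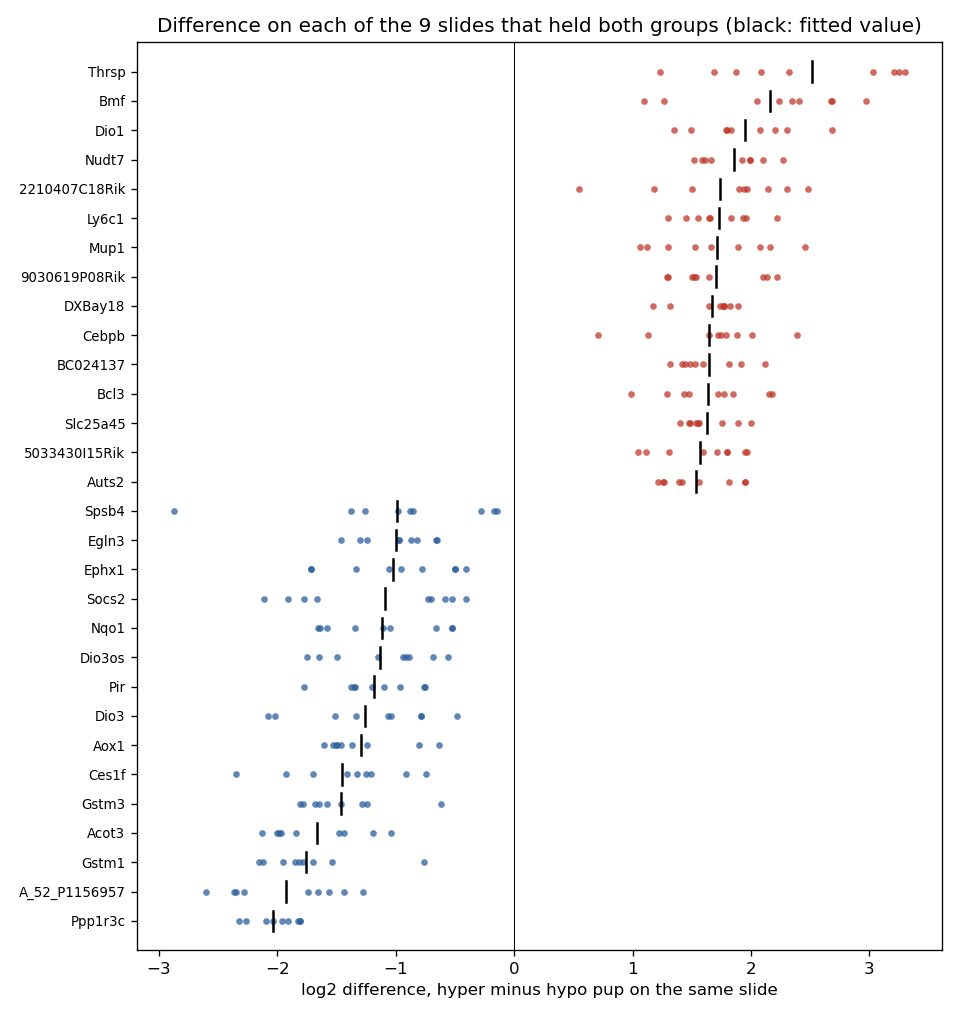
Hyper minus hypo difference (x axis, log2) on each of the 9 slides that held both groups, for the 15 genes with the largest rise (red) and the 15 with the largest fall (blue). Black bars are the fitted differences. All slides lie on the same side of 0 by selection, and their spread is narrow for Slc25a45 (1.40 to 2.00) and Ppp1r3c (-2.32 to -1.81) and wide for Thrsp (1.23 to 3.31) and Spsb4 (-2.88 to -0.14).

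Among the 9 genes of hormone activation, inactivation and conjugation on the array, 1 was higher and 3 were lower. The deiodinases went in opposite directions. Dio3, which inactivates T4 and T3, had levels of 0.99 to 1.87 (median 1.41) in hyper and 1.99 to 3.40 (median 2.64) in hypo pups, a difference of -1.26 (SE 0.14, adjusted p = 3.46e-06) against the rise of Dio1. Dio3os, transcribed from the same locus, differed by -1.13 (SE 0.12, adjusted p = 2.34e-06). Control means for Dio3 (2.22 ± 0.42, SD, n = 8) and Dio3os (1.56 ± 0.23, SD, n = 8) lay nearer to hypo than to hyper. Dio2, the other activating deiodinase, was not called. Sult1b1, a sulfotransferase of iodothyronines, was lower by 0.45, but with the log ratio of the scanner software the difference was -0.10 (adjusted p = 0.733). Crym, a T3-binding protein of the cytosol, was lower by 0.37, a call that held in 8 of 16 settings. It was lost with the slide as a fixed block (adjusted p = 0.0555), without a slide block (0.0691) and without hypo pup 576, 743 or 893 or hyper pup 499 (from 0.0547 to 0.0695). Of 13 transporters and serum carriers, 2 were higher and 2 lower. Slc16a10, a transporter of iodothyronines and aromatic amino acids, was higher by 0.58 (SE 0.06, adjusted p = 2.71e-06) without overlap of the groups, although of its other probes one rose by 0.21 and one (0.08) was not called. Serpina7, the thyroxine-binding globulin of serum, was lower by 1.01 (SE 0.21, adjusted p = 0.00312), on 8 of 9 slides, with overlapping levels of 2.82 to 3.97 in hyper and 3.27 to 5.64 in hypo pups, and it was not called with the log ratio of the scanner software (-0.27, adjusted p = 0.472).

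The receptors themselves differed little. Of 15 receptors, RXRs, corepressors and coactivators, 1 was higher and 1 lower, 13.3% against 8.19% over all genes, unnamed transcripts included. Thra, receptor alpha, was lower by 0.27 (SE 0.06, adjusted p = 0.0108), while a further Thra probe (-0.11) was not called. Thrb, the main receptor of liver, and the RXR genes were not called.

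A list of 29 genes long known to respond to the hormone had 12 genes higher and 0 lower (41.4% called), with a median difference of 0.16 over the list against -0.01 over all genes. Like the other lists, it was chosen with earlier results of these data known, so its direction is not independent evidence. Besides the markers named above, the 12 higher genes included Bcl3, a coregulator of the NF-kappaB family (1.64), Stat5a (1.46), Gpd2, the mitochondrial glycerol 3-phosphate dehydrogenase (1.34), and Cyp7a1 (1.21). Klf9, a Kruppel-like factor regarded as a direct receptor target, was higher by only 0.32 (SE 0.09, adjusted p = 0.0255), and the call held in 7 of 16 settings. It was lost with the inferred litter as a block (adjusted p = 0.1), without a slide block (0.0949) and without hypo pup 891, 893 or 316 or hyper pup 783 (from 0.0516 to 0.0703). Gpd2 had levels of 0.87 to 1.46 in hyper and -0.86 to 0.04 in hypo pups, and both of its probes were called with the groups apart.

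Fatty acid and triglyceride synthesis had 11 of 25 genes higher and 1 lower. After Thrsp, the largest were Pnpla3, a lipid droplet protein (1.06, SE 0.14, adjusted p = 2.03e-05), Me1, the desaturase Fads1 (0.63) and Fasn, the fatty acid synthase (0.59, SE 0.08, adjusted p = 2.27e-05). Fasn had a mean of -0.59 ± 0.13 (SD, n = 10) in hyper and -1.19 ± 0.26 (SD, n = 9) in hypo pups. The exception was Scd1, the stearoyl-CoA desaturase, which was lower by 0.70 (SE 0.19, adjusted p = 0.025) on 7 of 9 slides. Its call was lost with the slide as a fixed block (adjusted p = 0.0912), with the inferred litter as a block (0.0517) and without hypo pup 311, 743 or 316 or hyper pup 621, 861 or 783 (adjusted p from 0.0536 to 0.0634). Srebf1, Acaca and Acly were not called.

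Cholesterol synthesis and LDL uptake had the largest share of calls among the lists of pathways, with 17 of 25 genes higher and 1 lower and a median of 0.32. The changes were modest but spread over the pathway, from Hmgcs1 (0.92), which catalyses an early step, through Sqle (0.44), Cyp51 (0.45), Msmo1 (1.20) and Sc5d (0.82) to Dhcr7 (0.55). Msmo1, a sterol methyl oxidase, ranged from -1.44 to -0.48 in hyper and from -2.52 to -2.04 in hypo pups, so that the groups were apart by a wide margin (SE 0.10, adjusted p = 4.51e-08). Srebf2, the transcription factor that drives the pathway, was higher by 0.57, although its other probe (-0.05) was not called. Fdft1, the squalene synthase, was lower by 0.53. Hyper and hypo pups did not overlap in 5 of the 17 genes that were higher, and 11 had the same sign on all 9 slides.

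Cyp7a1, the rate-limiting enzyme of bile acid synthesis, had levels of 4.71 to 5.89 (median 5.21) in hyper and 3.54 to 4.75 (median 3.91) in hypo pups. The difference was 1.21 (SE 0.15, adjusted p = 1.75e-05), the groups just overlapped, and both probes were called. Cyp8b1 (0.80), Cyp27a1 (0.62) and Akr1d1 (0.57), further enzymes of bile acid synthesis, were higher as well, each with overlap, and Cyp8b1 and Akr1d1 were not called after normexp background correction (adjusted p = 0.246 and 0.587). Abcc3, an export pump of the sinusoidal membrane, was lower by 0.83 (SE 0.10, adjusted p = 5.31e-06), while its other probe (-0.10) was not called. In all, 4 of 18 bile acid genes were higher and 1 was lower. Of 18 genes of lipoproteins and lipases, 1 was higher (Apoa4, 0.33) and 3 were lower, led by the VLDL receptor Vldlr (-0.92, SE 0.15, adjusted p = 0.000265) and the lipase Lpl (-0.50). The Apoa4 call held in 12 of 16 settings. It was lost with the log ratio of the scanner software (0.10, adjusted p = 0.889) and after normexp background correction (0.12, adjusted p = 0.723). None of the main apolipoproteins of VLDL and HDL, such as Apob and Apoa1, was called.

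Regulators and carriers of mitochondria had 6 of 18 genes higher and 0 lower (33.3%). With Slc25a45 and Gpd2 these were Ppargc1b, a coactivator of mitochondrial genes (0.93, SE 0.06, adjusted p = 3.12e-09), Coq10b (0.60), cytochrome c (Cycs, 0.39) and Ucp2 (0.23), of which the Ucp2 call held in 10 of 16 settings. It was lost with the slide as a fixed block (adjusted p = 0.093), after median centring (0.148) and without hyper pup 783 (0.0509), and the other Ucp2 probes (0.07 and 0.14) were not called. Ppargc1a and Tfam were not called. Of 30 genes of fatty acid oxidation, 7 were lower, 2 higher and 21 not called, with a median of -0.06. The lower genes were led by Acot1 (-0.60), Pdk4 (-0.45) and Acot2 (-0.34). The call of Pdk4 was fragile, being lost with the slide as a fixed block (adjusted p = 0.0811) and without any 1 of 9 single pups. In glucose metabolism 3 of 21 genes were higher and 2 lower. Ppp1r3c was the gene with the largest fall. G6pc, Gys2 and Pygl were not called. Of 23 genes listed under the urea cycle and amino acid breakdown, 4 were lower and 1 was higher. The lower genes were Etnppl (-0.92), Oat (-0.79), Cth (-0.54) and Got1 (-0.29). Etnppl, by its name a lyase of phosphoethanolamine, is in the list but is not an enzyme of either pathway. With the log ratio of the scanner software Etnppl was at -0.22 and not called (adjusted p = 0.626). The higher gene was Prodh (0.97), which was not called with the slide as a fixed block (adjusted p = 0.0557).

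Glutathione S-transferases, which conjugate glutathione to electrophiles, were lower in hyper than in hypo pups as a group, with 12 of 19 lower and 1 higher (68.4% called) and a median of -0.27. The mu class led. Gstm1 had levels of 1.62 to 2.36 (median 1.82) in hyper and 3.11 to 4.16 (median 3.69) in hypo pups, a difference of -1.76 (SE 0.12, adjusted p = 2.15e-09), and its other probe gave -1.20. Gstm3 followed with 1.67 to 2.21 against 2.84 to 3.73 and a difference of -1.46 (SE 0.09, adjusted p = 1.97e-09). These genes are close relatives, and sharing of signal between their probes was not tested. Gsta2 (-0.69), Gstm2 (-0.68), Gstm4 (-0.64) and Gstp1 (-0.58) were lower too, and Gstt1 (0.22) was the one member that was higher.

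Antioxidant targets of the transcription factor NRF2 showed the same direction, with 14 of 24 lower and 2 higher (66.7%) and a median of -0.31. Aldehyde oxidase (Aox1) differed by -1.29 (SE 0.12, adjusted p = 1.7e-07), with levels of -0.09 to 0.44 in hyper and 0.63 to 1.93 in hypo pups. The quinone reductase Nqo1 differed by -1.12 (SE 0.11, adjusted p = 1.01e-06), with levels of -1.68 to -1.07 in hyper and -0.68 to 0.23 in hypo pups. Ephx1, the microsomal epoxide hydrolase, differed by -1.02 and Srxn1, a sulfiredoxin, by -0.72. Enzymes of glutathione and thioredoxin, namely Gclc (-0.59), Txnrd1 (-0.50) and Gsr (-0.39), were lower as well. The 2 exceptions were Osgin1 (1.07) and Me1. Nfe2l2, the gene of NRF2, and Keap1, its inhibitor, were not called. Pir, a nuclear iron protein outside the list that is also known to follow NRF2, differed by -1.19 (SE 0.10, adjusted p = 3.75e-08), with levels of -0.38 to 0.55 in hyper and 0.74 to 1.51 in hypo pups. The letters TGACNNNGC, the core of the antioxidant response element, were searched after these values had been seen and were present in 16.91% of the promoter windows of genes called lower, 16.2% of those called higher and 15.71% of all. The window of Pir (chrX:164269181-164269480, plus strand) held the core 2 times, both on the opposite strand and shown in capitals, and the window of Me1, which was higher, held it as well.
Pir: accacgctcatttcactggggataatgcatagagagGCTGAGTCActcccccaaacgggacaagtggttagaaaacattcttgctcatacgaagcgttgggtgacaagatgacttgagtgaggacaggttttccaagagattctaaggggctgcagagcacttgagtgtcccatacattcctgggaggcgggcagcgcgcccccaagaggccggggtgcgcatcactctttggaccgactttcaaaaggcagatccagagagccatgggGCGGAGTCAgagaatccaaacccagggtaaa

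Targets of the drug receptors CAR and PXR had 5 of 23 genes lower and 1 higher. The genes of the receptors themselves were among those lower, Nr1i3 by 0.33 and Nr1i2 by 0.37, and the calls held in 12 and 8 of 16 settings. The Nr1i2 call was lost without a slide block (adjusted p = 0.109), with the inferred litter as a block (0.116), with the log ratio of the scanner software (-0.09, 0.712) and without hypo pup 576 or hyper pup 499 or 861 (from 0.0505 to 0.0627). Cyp2c55 (-0.73) and Alas1 (-0.50) were lower with the same sign on all 9 slides. The Cyp2b and Cyp3a genes on the array were not called, and of 20 other cytochromes P450 only Cyp2u1 was, higher by 0.24 (called in 10 of 16 settings). The 1 higher gene of the list, Cyp2a4 (0.40, adjusted p = 0.0378), had no difference in that direction with the log ratio of the scanner software. It was called in 7 of 16 settings and in 6 of the 19 fits that left out 1 pup. A further Cyp2a4 probe was called higher by 0.65, and another (0.36) was not called.

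Signal mediators of growth hormone included 5 of 19 genes higher and 2 lower. Stat5a had levels of 1.65 to 2.11 in hyper and -0.01 to 0.68 in hypo pups, a difference of 1.46 (SE 0.07, adjusted p = 3.11e-11), and Stat5b, the main form of liver, differed by 0.93 (SE 0.06, adjusted p = 4.43e-09), both with the groups apart. Socs2, an inhibitor of the same pathway, was lower by 1.09 (SE 0.19, adjusted p = 0.000656), with overlap. Igf1, Igfals and Ghr were not called. Of 14 Kruppel-like and C/EBP factors, Cebpb, Klf13 (0.71) and Klf9 were higher and Cebpa lower (-0.37). Among 24 other nuclear receptors and coregulators, 5 were higher and 2 lower. Trim24, a coregulator of the retinoic acid receptor, had a mean of 1.39 ± 0.12 (SD, n = 10) in hyper and 0.19 ± 0.16 (SD, n = 9) in hypo pups without overlap, a difference of 1.20 (SE 0.06, adjusted p = 1.69e-11). The estrogen receptor Esr1 and the retinoic acid receptor Rarb each rose by 0.61, and Pparg (-0.49) and Nr5a2 (-0.53) were lower. The Nr5a2 call was lost with the inferred litter as a block (adjusted p = 0.0524). Of 19 clock genes, 5 were lower, among them Tef (-0.45), Per2 (-0.37) and Cry2 (-0.28), and 2 higher, and the core genes Arntl, Clock and Nr1d1 were not called. Of the further probes, those of Tef (-0.16 and -0.12) and Per2 (-0.06) were not called and that of Cry2 (-0.09) was, and the calls of Per2 and Cry2 each held in 12 of 16 settings.

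In the BCL2 family, 7 of 13 genes were higher and 2 lower (69.2%), and the genes that were higher included, after Bmf, the BH3-only genes Bbc3 (0.72), Bik (0.49), Bcl2l11 (0.42) and Bad (0.23), the effector Bak1 (0.26) and the protective Bcl2l1 (0.10). A further Bak1 probe (-0.05) was not called, nor was Bak1 with its probes averaged (0.10, adjusted p = 0.0608). The lower genes were Bid (-0.28) and Mcl1 (-0.18). Autophagy genes were called in 5 of 22 cases, with Trp53inp2 (1.22), Ulk1 (0.97) and Ulk2 (0.94) higher, without overlap of the groups, and Bnip3 (-0.70) and Sqstm1 (-0.37) lower. Of 35 genes of DNA replication and mitosis only the inhibitor Cdkn1a was called, higher by 0.57. Gch1, the first enzyme of tetrahydrobiopterin synthesis, had levels of 3.08 to 3.56 in hyper and 2.12 to 2.41 in hypo pups, a difference of 1.07 (SE 0.05, adjusted p = 1.53e-11), while Qdpr, which regenerates the cofactor, was lower by 0.31 and the other 5 genes of that pathway were not called.

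Guanylate-binding proteins and interferon genes had 10 of 23 members higher and 0 lower (43.5%), led by Gbp3 (1.16, SE 0.11, adjusted p = 2.52e-07) and Gbp8 (1.00, SE 0.11). Gbp3 had levels of 0.99 to 1.82 in hyper and -0.22 to 0.98 in hypo pups. Irf1 (0.62) and Il15 (0.54) were higher as well, but the common interferon markers Isg15 and Ifit1 were not called. Stress genes moved in both directions, with 5 of 22 higher and 3 lower. The metallothioneins Mt2 (-1.49, SE 0.33, adjusted p = 0.00526) and Mt1 (-1.04, SE 0.21, adjusted p = 0.00238) were lower on 8 of 9 slides, and Mt2 differed by -1.18 without hyper pup 498, whose level of -2.92 lay far below the next at -0.94. Fkbp5, a glucocorticoid target, was lower by 0.60, though its other 2 probes were not called. Of 14 fetal liver genes, 5 were lower and 0 higher, among them Bex1 (-0.69) and Igf2bp3 (-0.38). Afp, the fetal albumin, was lower by 0.62 (adjusted p = 0.0459), a call that was lost under most alternatives, such as the slide as a fixed block (adjusted p = 0.0935).

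**Figure D4:**
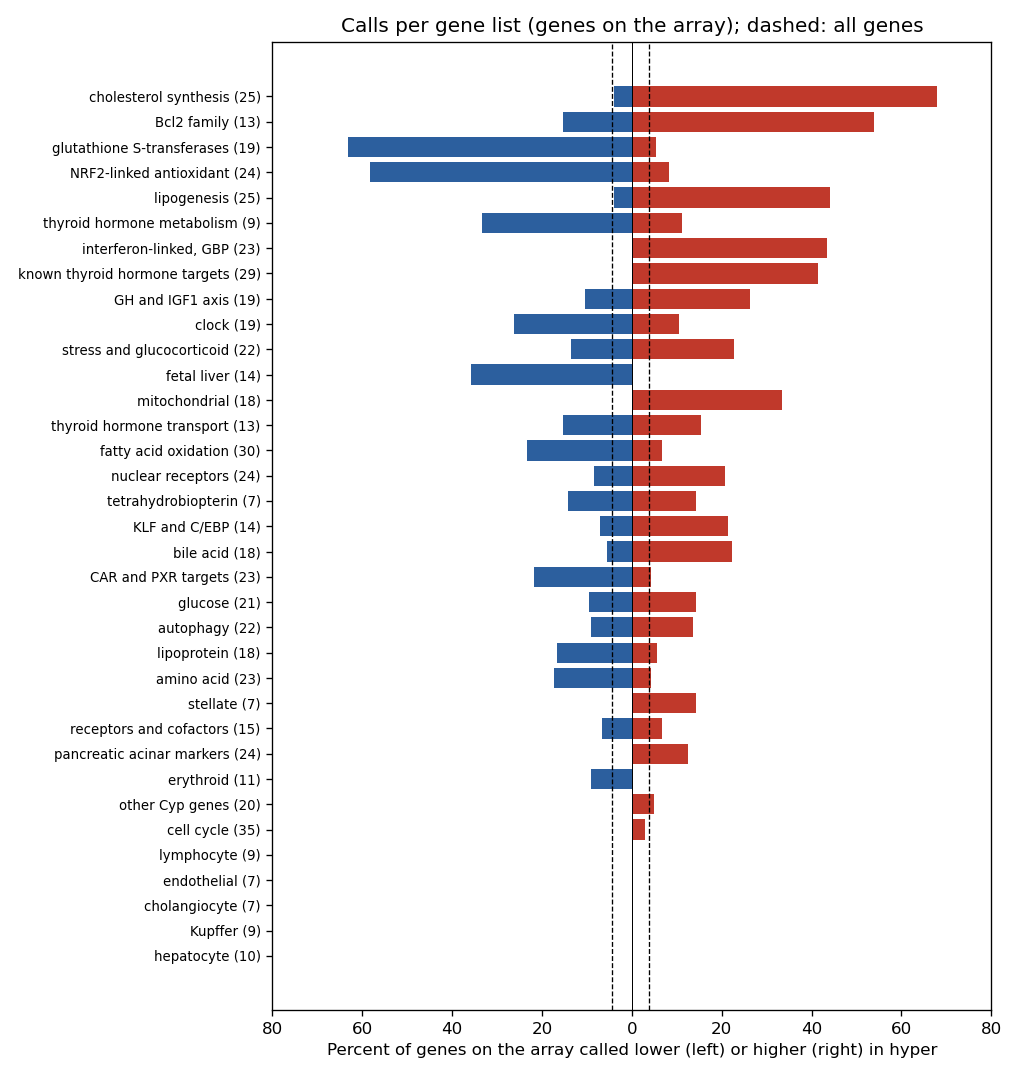
Share of the genes of each of 35 lists, without the markers, the list of the study and the reference and sex-linked genes (number on the array in parentheses) called higher (red, right) or lower (blue, left) in hyper than in hypo pups, in percent (x axis). Dashed lines mark the shares over all genes, 3.82% higher and 4.37% lower. Among the lists drawn, cholesterol synthesis extends farthest to the right, and the glutathione S-transferases (12 of 19) and NRF2 targets (14 of 24) farthest to the left.

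Among markers of other cell types, few were called. None of 9 Kupffer cell, 7 bile duct, 7 endothelial and 9 lymphocyte markers was called, 1 of 11 erythroid markers was lower (Klf1, -0.33) and 1 of 7 stellate cell markers was higher (Lrat, 0.75). A further Lrat probe (0.44) was not called. Some lists had 1 sign throughout without any call: the differences were negative for all 10 hepatocyte markers (-0.20 to -0.09, median -0.13) and all 7 bile duct markers (-0.12 to -0.02), and positive for all 9 Kupffer cell markers (0.02 to 0.47). Their part in the other results was not tested. The mean level of the Kupffer list ranged from 3.05 to 3.62 in hyper and 2.96 to 3.77 in hypo pups. Pancreatic acinar markers had a mean level between 0.59 and 0.79 in hyper and between 0.51 and 0.69 in hypo pups. Of 24, 3 were called higher: Ctrc (1.17, SE 0.06, adjusted p = 1.54e-10), Cela2a (0.58, well above background in 1 of 9 hypo pups) and Amy2a5 (0.36, adjusted p = 0.0294). Amy2a5 was not called without any 1 of 7 single pups (adjusted p up to 0.0679). The digestive enzymes Cpa1, Pnlip and Ctrb1, defining markers of acinar cells, were not called. Ctrc had levels of 1.56 to 2.11 in hyper and 0.38 to 0.92 in hypo pups, and the part of pancreatic RNA in its difference was not tested.

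Where control pups stood between hypo and hyper varied among the genes. To describe it, the position of a group mean was expressed from 0 at the hypo mean to 1 at the hyper mean, and a mean is called near hypo below 1/3, near hyper above 2/3 and central between these. The controls supply no test here. Over the 1271 genes higher in hyper, the median control position was 0.497, with 25.7% of genes near hypo and 24.9% near hyper. Over the 1452 genes lower in hyper, it was 0.618, with 44.4% near hyper and 19.0% near hypo. Among the 15 genes with the largest rise, the control mean was central for 12, near hyper for 2 (Dio1, 0.83, and 9030619P08Rik, 0.81) and level with hypo for 1 (Auts2, -0.05). Among the 15 with the largest fall it was near hyper for 9. Without the 3 control arrays with a high level of acinar genes, an alternative chosen after seeing the data, the median control position was 0.46 over the higher and 0.58 over the lower genes, and the control mean was central for 10 of the 15 genes with the largest rise and near hyper for 4.

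Each extreme group was also fitted against the 8 controls in a model of all 34 arrays, and these comparisons share the control arrays. Hyper differed from control in 634 probes (1.54%), 449 higher (1.09%) and 185 lower (0.449%). Hypo differed from control in 862 probes (2.09%), 443 higher (1.08%) and 419 lower (1.02%), and hypo+ in 700 (1.7%). Without the 4 arrays with a high level of acinar genes, these counts were 457 for hyper (321 higher, 136 lower), 432 for hypo (198 higher, 234 lower) and 104 for hypo+. Of the 51 genes called higher in hyper than in hypo by at least 2-fold, 39 were called in hyper against control, 43 in hypo against control and 33 in both. Of the 19 lower by at least 2-fold, the numbers were 8, 12 and 3. Without those 4 arrays they were 38, 41 and 33 for the higher and 5, 11 and 3 for the lower genes. Slc25a45 was among those called in both, with 0.87 for hyper minus control and -0.76 for hypo minus control, both called. Gstm1 was called against control in hypo but not in hyper, with 1.46 for hypo (adjusted p = 5.9e-10) and -0.30 for hyper (adjusted p = 0.26). Mt2 was the reverse, with -1.61 for hyper (adjusted p = 0.0083) and -0.11 for hypo (adjusted p = 0.97), but without those arrays Mt2 was called in neither (-1.16, adjusted p = 0.174, and 0.33, adjusted p = 0.91).

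**Figure D5:**
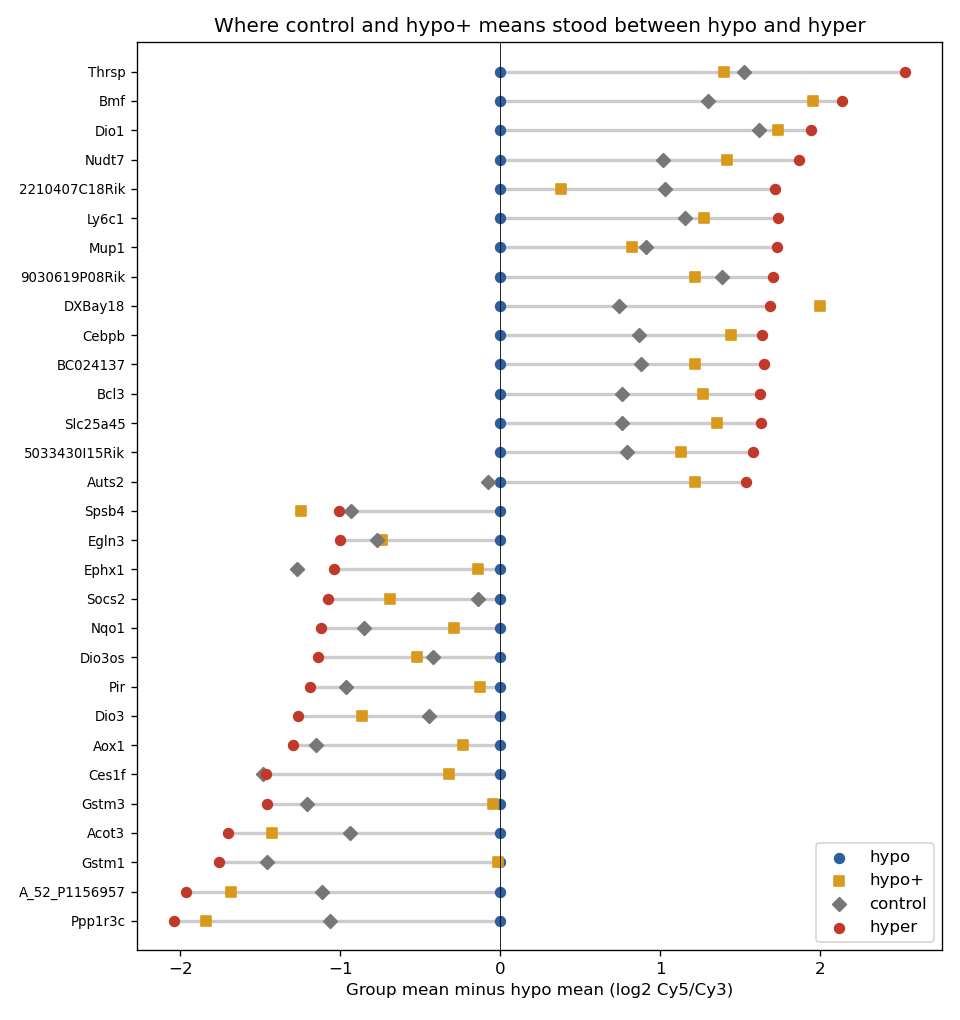
Means of hypo (blue circle, set to 0), hypo+ (yellow square), control (grey diamond) and hyper (red circle) relative to the hypo mean (x axis, log2 Cy5/Cy3) for the 15 genes with the largest rise and the 15 with the largest fall. For Gstm1 and Gstm3 the hypo+ mean lies on that of hypo and the control mean near hyper, whereas for Ppp1r3c and Acot3 the hypo+ mean lies near hyper.

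The hypo+ pups, with the goitrogens, a smaller hormone dose and a selection by serum T4, divided the gene groups further. In the 15 genes with the largest rise, the hypo+ mean lay near hyper for 12, and 2210407C18Rik (0.22) was the one gene in which it lay near hypo. In the 15 with the largest fall, 6 had a hypo+ mean near hyper or beyond it and 7 near hypo. The first kind included Ppp1r3c (0.90), Acot3 (0.84) and Dio3 (0.69), and the second Gstm1 (0.01), Gstm3 (0.03), Pir (0.10), Ephx1 (0.14), Aox1 (0.18), Ces1f (0.22) and Nqo1 (0.26). The levels of Gstm1 in hypo+ pups, 3.32 to 4.02, fell inside the range of hypo, and its control levels, 1.97 to 2.45, lay below all of them. Of the 12 glutathione S-transferases lower in hyper, the control mean was near hyper for 11, and the hypo+ mean was near hypo for 7, central for 5 and near hyper for 0. Of the 14 lower NRF2 targets, the control mean was near hyper for 11, and the hypo+ mean was near hypo for 12, central for 2 and near hyper for 0. Over all 1452 genes lower in hyper, hypo+ was near hyper for 36.9% and near hypo for 33.5%.

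Cholesterol genes had hypo+ levels near or below those of hypo in most cases. Of the 17 that were higher in hyper, the hypo+ mean was near hypo for 11 and near hyper for 1, with a median position of -0.04, against 0.57 over all 1271 genes higher in hyper, of which hypo+ was near hypo for 30.8% and near hyper for 41.9%. The control mean was central for 11 of these 17. Sc5d (0.48), Msmo1 (0.34), Srebf2 (0.26) and Dhcr7 (0.04) had hypo+ positions in or below the middle. The 10 interferon genes also had 7 hypo+ means near hypo or below, but their control mean was near hypo for 6 and central for 4. By contrast, the hypo+ mean was near hyper or above it for 4 of the 6 mitochondrial genes and for all 3 Kruppel-like and C/EBP factors that were higher. No test of these positions was made. Without the 4 arrays with a high level of acinar genes, the hypo+ counts near hypo were 11 for cholesterol, 7 for interferon, 2 for mitochondrial genes, 7 for glutathione S-transferases and 11 for NRF2 targets.

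No dependence of the difference between hyper and hypo on sex was detectable with 4 or 5 pups per sex and group. In males 1089 probes (2.64%) were called and in females 1732 (4.21%), in a fit with a coefficient for each sex. For the interaction of sex and treatment, limma called 0 probes (0%; smallest adjusted p = 1), and 1039 (2.52%) had an unadjusted p below 0.05. Thrsp differed by 2.23 in males and 2.75 in females, Dio1 by 1.82 and 2.06, Ppp1r3c by -2.07 and -2.01, and Gstm1 by -1.65 and -1.86. Hprt, the reference gene of the study, differed by -0.01 (SE 0.07, adjusted p = 0.974).

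The study listed 28 genes as directly regulated, chosen on these same arrays, so the list is not independent evidence of its direction. Of these, 25 were higher and 1 was lower in hyper than in hypo (92.9%), with a median of 0.62. Hyper and hypo pups did not overlap in 21 of the 25. After the genes named above, the largest were Stim2, a calcium sensor of the endoplasmic reticulum (1.42), the transcript AK044145 (1.36) and Sned1 (1.28). Sned1 had levels that hardly varied within groups, with a mean of 0.45 ± 0.13 (SD, n = 10) in hyper and -0.83 ± 0.11 (SD, n = 9) in hypo pups, and all 3 of its probes were called. AK044145, well above background in 7 of 9 hypo pups, had group means arranged as those of Auts2, with 0.28 in control, 0.37 in hypo, 1.31 in hypo+ and 1.72 in hyper pups.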

How the data were processed

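Liver RNA of 34 pups was hybridised with a Cy3 reference on 2-colour Agilent arrays without dye swap. The authors deposited scanner output with median Cy5 and Cy3 intensity per spot, which was not background-subtracted, the log10 ratio of the scanner software, and a table of log2 values. Control spots and outlier flags were left out. Intensities were loess-normalized within each array and spots of a probe averaged, which gave 41174 probes. Hyper and hypo (10 and 9 arrays) were compared with limma 3.58.1 in R 4.3.3, with gender as covariate and slide as random block (intraslide correlation 0.255), and Benjamini-Hochberg adjustment over all probes at 0.05. A second fit over 34 arrays gave the comparisons with control. Litters are not stated in the labels, so pups were treated as independent apart from the slide block, and inferred littermates may make the p-values too small. Each gene was represented by its brightest probe (33236 genes), and 16806 probe accessions were named through RefSeq. Named genes were the 4 markers, the 15 with the largest rise and the 15 with the largest fall that had 1 sign on 9 slides, Hprt, and up to 6 called members per list with the largest change. Other members were named after their values were seen. Members and gene lists were chosen with earlier results of these data known. The fit was tested on data simulated with independent probes, a slide effect and no litter effect. It recovered 80% and 94% of 50 probes at each of the smallest folds tried (1.25 and 1.5), with 12 false calls among 41096 probes. False calls in the presence of a litter effect were not tested. The number of arrays limits the precision. Alternatives of block, samples, normalization and source column were run. Some genes of the lists are not reported here by name.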

Additional observations from a re-analysis of the deposited data

Results flagged for a closer look

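Of 294 pairs of a named gene and a group, 8 held a pup far from the others of its group by Dixon's test. Chance flags about 1 in 20 groups. Hyper male 498 was the lowest hyper pup in 4 of them, with -2.92 for Mt2 (next pup -0.94), -1.63 for Bbc3 (next -0.86), -0.35 for Spsb4 (next 0.71) and 3.44 for Cth (next 3.77). Hyper male 784 was the highest for Apoa4 (2.60, next 2.28) and Klf1 (1.47, next 1.24). In hypo pups, female 721 was the highest for Afp (7.45, next 6.41) and male 311 the lowest for Coq10b (0.70, next 1.27). Causes were not tested.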

How the results depend on the processing

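The 4 markers Thrsp, Dio1, Auts2 and Me1 were called in all 16 settings and in all 19 fits that left out 1 pup. The count of 3404 called probes was 2926 with the slide as a fixed block, 2453 without it, 3517 over 34 arrays, 3297 with the authors' log2 values and 4442 with Cy5 alone. It fell to 2377 with the inferred litter as a random block (1134 lower), 2092 with litter means (1131 higher, 961 lower), 523 in males only (383 higher, 140 lower) and 919 in females only (528 and 391). After normexp correction 1028 of 2615 calls were higher, and after median centring 763 of 2051 were lower. Without the slide block, 667 probes were called in males and 1078 in females. Without either slide or gender, an alternative chosen after seeing the data, 2450 were called. Leaving out 1 pup gave 2821 (without hyper 783) to 3694 calls (without hyper 585), 1430 to 1878 of them higher and 1384 to 1873 lower. Cyp2a4 turned from 0.40 to -0.009505 with the log ratio of the scanner software, and the cause was not tested. The slide as a fixed block, which pairs the hyper and hypo arrays of 9 slides, is the paired fit. Without the 4 arrays with a high level of acinar genes, also chosen after seeing the data, calls against control were 457 (against 634) for hyper, 432 (862) for hypo and 104 (700) for hypo+, with fewer control arrays in the fit.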
